A study of Mus musculus with 112 samples.

Results

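A set of 9 genes of ketone use and fatty acid oxidation was described in the cerebral cortex of calorie restricted (CR) and control mice out of 19938 genes measured. They were the ketone body enzymes Bdh1 and Oxct1, the transporter Slc16a1, the carnitine palmitoyltransferases Cpt1a and Cpt1c, the beta-oxidation enzymes Acadm, Acadl and Hadha, and the pyruvate dehydrogenase kinase Pdk4. They were chosen by name, as the genes of this pathway, with earlier results of these data known. All 9 were found in the deposited values, each with 1 probe set that carries that symbol alone. Their mean signals lay between the 58.7th percentile of genes (Acadl) and the 88.9th (Oxct1).

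Each array held the RNA of 1 male mouse, with 8 CR and 8 control mice in each of 7 strains, 112 arrays and 14 groups in all. All but 1 of the strains were inbred (C57BL6/J, C3H/HeJ, Balbc/J, 129S1/SvImJ, DBA/2J and CBA/J), and B6C3F1/J was a hybrid with C57BL6/J and C3H/HeJ as parents. CR or control food was given from 8 weeks of age, to mice housed singly, until the cortex was taken at 22 weeks. Mice of both diets were fasted overnight before collection, so every group was measured in the fasted state and none when fed. The study's methods give food allowances that differed by strain. Balbc/J mice received more on either diet, and the allowance was cut again during the experiment for CR mice of C57BL6/J and 129S1/SvImJ. Values are log2 RMA signals, in which 1 unit is a 2-fold difference. Signals of different probe sets were compared only roughly, as percentiles, against the median gene, or as high or low marker signals. Standard errors of CR differences had a median, over all genes, of 0.026 for the 7 strains together, against 0.068 in a single strain (log2 units).

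Markers of cortical excitatory neurons were high in the tissue. Slc17a7, a glutamate transporter of synaptic vesicles, lay between 11.5 and 12.4, and Camk2a between 12.8 and 13.3, in 108 arrays. Those 108 arrays were not uniform. The mean of the excitatory neuron markers fell to 9.33 in a C3H/HeJ CR array, against a group mean of 9.98. The mean of choroid plexus markers ran from 6.90 to 8.45 among C57BL6/J CR mice. The other 4 arrays stood apart in genes of the cerebellum. Over 12 genes of cerebellar granule and Purkinje cells, B6C3F1/J control replicate 8 exceeded the rest of its group by a median of 4.03 log2 units, C57BL6/J control replicate 6 by 4.03, DBA/2J control replicate 8 by 1.43 and CBA/J CR replicate 6 by 1.06. Among the genes described here, Cpt1c and Pdk4 were lower in C57BL6/J control replicate 6 than in the other 7 mice of its group, by differences of -0.49 and -0.59, and Slc16a1 was lower in DBA/2J control replicate 8 by a difference of -0.57. Values include these arrays unless stated.

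Ketone bodies are made mainly in the liver from fatty acids during fasting and are carried in blood to the brain, where they can replace part of the glucose that neurons burn. They cross the blood-brain barrier and cell membranes through monocarboxylate transporters, of which the product of Slc16a1 (MCT1) is the main form of brain endothelium and is also found in glia. BDH1 turns 3-hydroxybutyrate into acetoacetate, and OXCT1 then activates acetoacetate with coenzyme A, the step that liver lacks. Fatty acids enter mitochondria as carnitine esters made by CPT1A, whereas CPT1C is a neuronal form that sits in the endoplasmic reticulum and has little of this activity. The chain is then shortened by acyl-CoA dehydrogenases, ACADM for medium and ACADL for long chains, and by the trifunctional protein, whose alpha subunit is HADHA. In brain this oxidation takes place mostly in astrocytes. PDK4 switches off pyruvate dehydrogenase and so spares glucose. In liver and muscle the genes Cpt1a, Acadm, Hadha and Pdk4 are induced by fasting, in part through the nuclear receptor PPAR alpha.

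Promoter windows from RefSeq (GRCm38.p6, the assembly of a C57BL6/J genome) were found for all 9 genes, Bdh1 with 2. Each runs from 250 bases before to 50 bases after an annotated start. They are shown for the 3 genes whose levels differed most between strains (Slc16a1, Pdk4 and Acadm) and for Hadha, which differed most between the hybrid and its parents. Capitals mark each match, on either strand, to the E-box CACGTG, the nuclear receptor core AGGTCA, the GC box GGGCGG and the CCAAT box. The windows are Slc16a1 at chr3:104638414-104638713 on the plus strand, Pdk4 at chr6:5496229-5496528, Acadm at chr3:153944594-153944893 and Hadha at chr5:30154931-30155230, all on the minus strand, and each is written 5′ to 3′ along its gene.
Slc16a1: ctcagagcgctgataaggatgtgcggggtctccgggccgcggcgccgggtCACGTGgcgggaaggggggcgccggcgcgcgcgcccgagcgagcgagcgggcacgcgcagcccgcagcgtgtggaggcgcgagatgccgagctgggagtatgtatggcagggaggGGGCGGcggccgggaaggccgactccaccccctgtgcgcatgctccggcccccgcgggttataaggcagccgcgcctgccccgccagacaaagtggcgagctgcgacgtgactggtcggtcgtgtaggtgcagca
Pdk4: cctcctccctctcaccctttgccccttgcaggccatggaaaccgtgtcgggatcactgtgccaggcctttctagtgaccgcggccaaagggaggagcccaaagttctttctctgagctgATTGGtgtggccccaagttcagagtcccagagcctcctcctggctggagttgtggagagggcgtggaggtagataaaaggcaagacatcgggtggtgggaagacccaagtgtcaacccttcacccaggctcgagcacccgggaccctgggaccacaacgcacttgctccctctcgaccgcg
Acadm: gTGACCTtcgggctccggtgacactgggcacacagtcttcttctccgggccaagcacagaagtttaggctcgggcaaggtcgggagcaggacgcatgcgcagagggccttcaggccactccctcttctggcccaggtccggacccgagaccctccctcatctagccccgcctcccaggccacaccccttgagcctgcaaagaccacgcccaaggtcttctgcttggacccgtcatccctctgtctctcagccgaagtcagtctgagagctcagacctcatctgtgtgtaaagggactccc
Hadha: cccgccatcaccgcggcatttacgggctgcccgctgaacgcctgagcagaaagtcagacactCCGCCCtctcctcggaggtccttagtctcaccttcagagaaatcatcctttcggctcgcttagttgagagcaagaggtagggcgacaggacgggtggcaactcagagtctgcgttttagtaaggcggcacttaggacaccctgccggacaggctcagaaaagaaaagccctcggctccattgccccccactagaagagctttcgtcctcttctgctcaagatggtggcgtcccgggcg

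The Slc16a1 window held an E-box at position -200 from the start and a GC box at -85, and at 73.7% G and C it was the richest of the 10 windows. An E-box is present in 7.15% of all 32851 promoter windows of this length, and no other window of the 9 genes had one. The core AGGTCA, present in 16.3% of all windows, was found in the windows of Cpt1a, Cpt1c and Acadm, in Acadm at -249 in the reverse direction. Its direct repeat AGGTCANAGGTCA, a form that PPAR binds, is in 0.0396% of all windows as an exact match and in 0 of these 10. With so rare a match, 0 of 10 does not tell whether PPAR binds at these genes. The Pdk4 window held a CCAAT box at -131 (37.4% of all windows) and the Hadha window a GC box at -188 (35.7%). TATAAA was in 0 of the 10 windows and in 13.6% of all. The Hadha window overlaps that of Hadhb, the gene of the beta subunit, which starts in the opposite direction (chr5:30155003-30155302, plus strand). Sequence differences between strains were not examined.

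**Figure D1:**
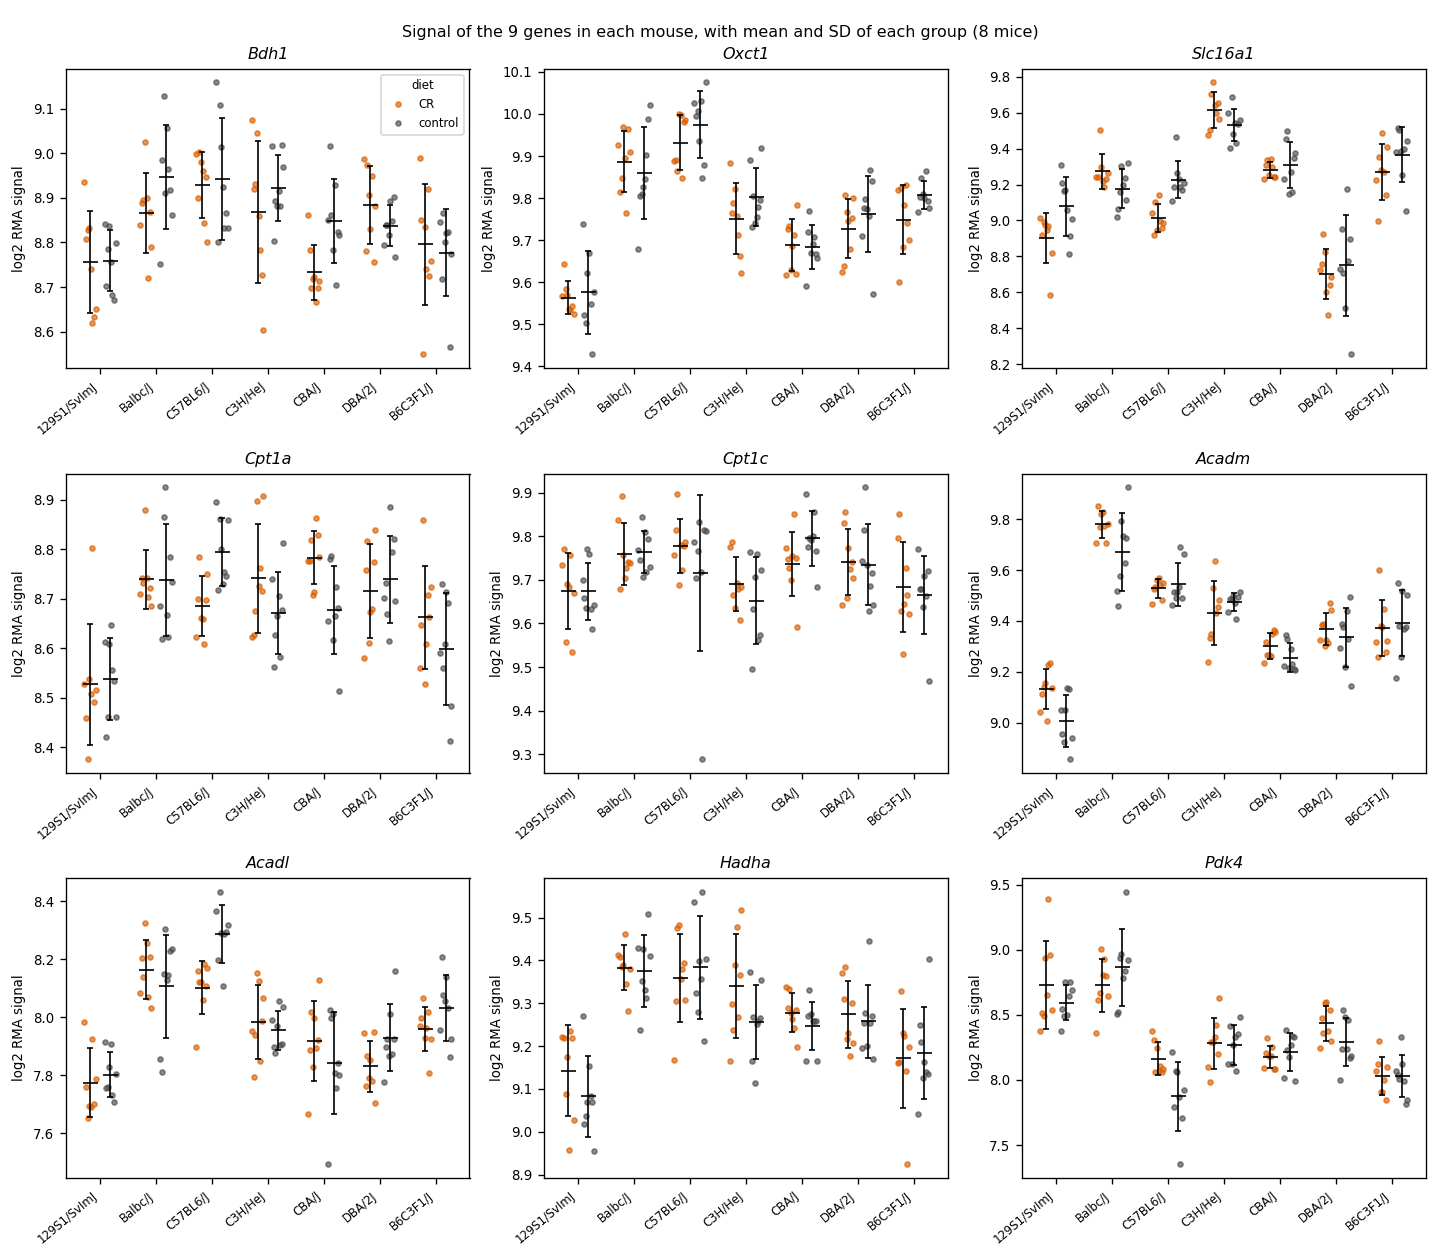
Log2 RMA signal (y axis) of each gene in every mouse, by strain (x axis), with CR mice in orange left of control mice in grey and bars for the mean and SD of each group of 8. CR and control mice overlap in every panel and strain, while strain means differ most for Slc16a1, Pdk4 and Acadm.

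The first comparison asked whether CR changed these genes over all strains. None of the 9 was called, 0 of 9 against 2.34% of all genes, 1.17% higher and 1.17% lower in CR mice (limma, moderated test on the mean of the 7 within-strain differences, Benjamini-Hochberg adjusted p under 0.05 over 19938 genes). At an unadjusted p under 0.05 there was 1 of 9, Slc16a1, against 14.3% of all genes. The sizes were small: the 95% intervals of all 9 genes lay between a decrease of 7.11% and an increase of 9.52% in CR mice. The median difference of the 9 genes was 0.0090 log2 units, beside 0.00054 over all genes.

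Slc16a1 averaged 9.15 in CR mice and 9.21 in control mice, a difference of -0.055 ± 0.026 (SE, adjusted p = 0.302), and it was lower in CR mice in 5 of 7 strains. The ketone enzymes were on the same side with differences of -0.029 ± 0.019 for Bdh1 (adjusted p = 0.543) and -0.024 ± 0.015 for Oxct1 (adjusted p = 0.474). For Oxct1 the interval ran from -3.63% to 0.34%, the narrowest of the 9.

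The fatty acid genes had no common sign. Acadm averaged 9.42 in CR mice and 9.38 in control mice (0.034 ± 0.018, adjusted p = 0.378), Hadha differed by 0.023 ± 0.018 (adjusted p = 0.620) and Acadl by -0.031 ± 0.022 (adjusted p = 0.571). The difference was 0.014 ± 0.018 for Cpt1a and 0.0090 ± 0.017 for Cpt1c (adjusted p = 0.807 and 0.887). Leaving out the 4 arrays high in cerebellar genes turned that of Cpt1c to -0.0080, and leaving out CBA/J turned that of Cpt1a to -0.0012. Pdk4 had the largest estimate, with means of 8.36 in CR mice and 8.31 in control mice (0.059 ± 0.037, adjusted p = 0.495), and the widest interval, -0.96% to 9.52%.

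**Figure D2:**
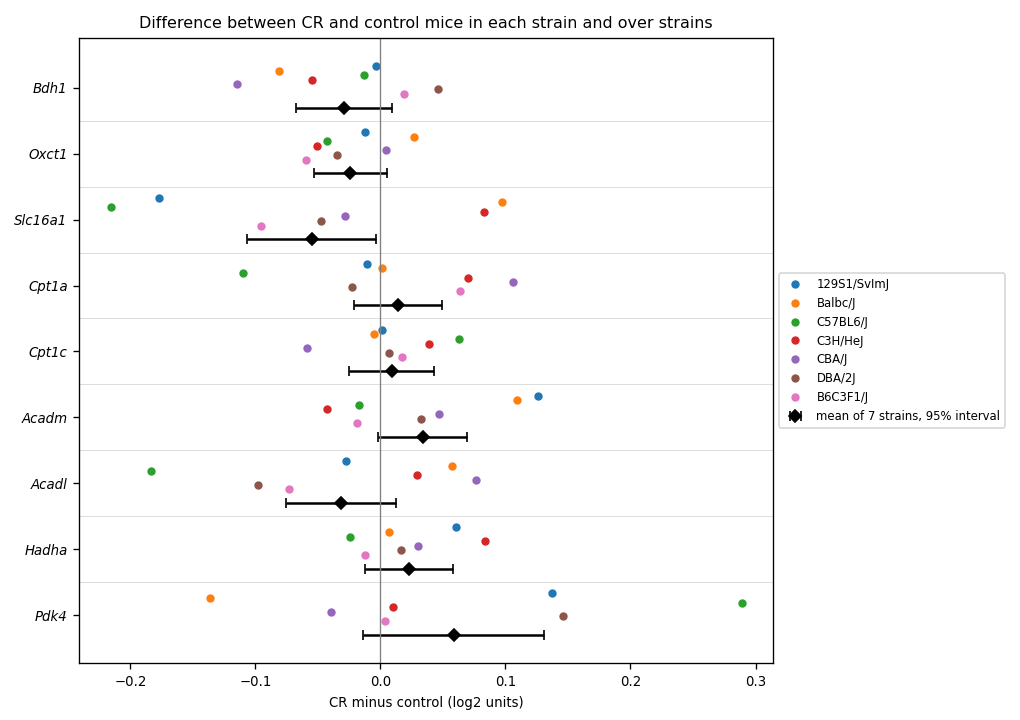
CR minus control in log2 units (x axis) for each gene (y axis), as coloured points for the 7 strains and a black diamond with its 95% interval for their mean. The 9 diamonds lie between -0.055 (Slc16a1) and 0.059 (Pdk4), and C57BL6/J has the lowest point of Slc16a1 and Acadl and the highest of Pdk4.

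Within single strains 0 of the 63 combinations of gene and strain were called, against 0.0272% of all combinations. At an unadjusted p under 0.05 there were 9 of 63, against 6.76% of all combinations. The 8 CR and 8 control values overlapped in 63 of 63, while 0.0738% of all combinations were free of overlap. The test of strain by diet interaction called 0 of 9 (0.0401% of all genes), so differences between strains in the CR effect were not shown. Its smallest p was that of Slc16a1 (unadjusted p = 0.00935, adjusted p = 0.666).

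Of these combinations, 4 were in C57BL6/J, where 10.6% of all genes passed an unadjusted p of 0.05. Slc16a1 ran from 8.92 to 9.14 in CR mice (median 8.99), against 9.11 to 9.46 in control mice (median 9.20). All but the top of the CR values lay under the lowest control, and the difference was -0.22 ± 0.069 (adjusted p = 0.194). With array weights it was -0.24 with an adjusted p of 0.0313, the one setting in which a combination of the 63 was called (adjusted p 0.0313 to 0.366 over 20 alternatives).

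Acadl in C57BL6/J ran from 7.90 to 8.18 in CR mice (median 8.12), against 8.11 to 8.43 in control mice (median 8.29). The difference was -0.18 ± 0.059 (adjusted p = 0.194), and Cpt1a was also lower by a difference of -0.11 ± 0.047 (adjusted p = 0.365). Without C57BL6/J the difference of Acadl across strains was -0.0060, against -0.031 with it. Pdk4 had the opposite sign in this strain, with values of 8.06 to 8.38 in CR mice (median 8.10), against 7.35 to 8.22 in control mice (median 7.89). The difference of 0.29 ± 0.097 (adjusted p = 0.239) was 0.21 without control replicate 6, the array high in cerebellar genes that gave the lowest Pdk4 value.

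The other 5 combinations were spread over 3 strains, with 2 in 129S1/SvImJ (6.24% of all genes), 1 in Balbc/J (6.65%) and 2 in CBA/J (7.87%). In 129S1/SvImJ, Slc16a1 had a median of 8.96 in CR mice and 9.11 in control mice (difference -0.18 ± 0.069, adjusted p = 0.577). Acadm had means of 9.13 in CR mice and 9.01 in control mice of that strain (0.13 ± 0.047, adjusted p = 0.527), and in Balbc/J means of 9.78 in CR mice and 9.67 in control mice (0.11 ± 0.047, adjusted p = 0.677). In CBA/J, Cpt1a had medians of 8.78 in CR mice and 8.67 in control mice (0.11 ± 0.047, adjusted p = 0.503), and Bdh1 8.72 in CR mice and 8.84 in control mice (-0.11 ± 0.051, adjusted p = 0.515). There were 0 in C3H/HeJ (2.64% of all genes), DBA/2J (5.66%) and the hybrid (7.63%). None of Slc16a1, Acadm and Cpt1a had the same sign in every strain: Slc16a1 was lower in CR mice in 5 strains, and Acadm and Cpt1a were higher in 4.

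Other genes of the same pathways were counted from lists of known function, for which the share of all genes called was the 2.34% above, 1.17% in each direction. The lists were chosen with earlier results of these data known, so their counts are a description and no test against that share. Of 18 measured genes in the mitochondrial beta-oxidation list, 0 were called across strains, with 10 higher and 8 lower in CR mice and a median difference of 0.0061. The smallest p belonged to Echdc1 (0.078, adjusted p = 0.0632), a decarboxylase that removes faulty acyl-CoA and is not itself a step of beta-oxidation. Next was Acad10, an acyl-CoA dehydrogenase relative (0.063, adjusted p = 0.0861). Ketone body metabolism and transport gave 0 of 11, with Aacs, which activates acetoacetate for lipid synthesis, at -0.046 (adjusted p = 0.147) and the monocarboxylate carrier Slc5a8 at 0.042 (adjusted p = 0.567). Peroxisomal beta-oxidation gave 0 of 12, where Ehhadh, its bifunctional enzyme, differed by -0.054 (adjusted p = 0.314) and Hsd17b4, the second such enzyme, by 0.030 (adjusted p = 0.394). PPAR and its coactivators and partners gave 0 of 15, with Foxo3, a transcription factor active in fasting, at -0.071 (adjusted p = 0.0789) and the receptor partner Rxrb at -0.050 (adjusted p = 0.0922).

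In the other lists 5 genes were called, against those shares of all genes. Of 18 genes of acyl-CoA entry, 2 fell in CR mice and 0 rose. Slc27a1, a fatty acid transport protein with acyl-CoA synthetase activity, averaged 9.81 in CR mice and 9.88 in control mice (-0.063 ± 0.016, adjusted p = 0.0156, lower in 7 of 7 strains). Acsbg1, an acyl-CoA synthetase of astrocytes, averaged 9.91 in CR mice and 9.99 in control mice (-0.081 ± 0.023, adjusted p = 0.0359, lower in 6 of 7). Acsbg1 also belongs to the list of 12 astrocyte markers, in which 1 rose and 2 fell (median -0.026). The part of astrocytes in its difference was not tested.

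Of 15 genes of pyruvate entry, 1 rose. Pdp1, the phosphatase that switches pyruvate dehydrogenase back on, averaged 11.7 in CR mice and 11.5 in control mice (0.13 ± 0.038, adjusted p = 0.0403, higher in 7 of 7 strains). Pdk1, Pdk2 and Pdk3, the kinases that oppose it together with Pdk4, were not called. Of 16 fasting-induced PPAR alpha target genes, 2 rose. Acot2, a mitochondrial acyl-CoA thioesterase, differed by 0.10 ± 0.029 (adjusted p = 0.0306) and Txnip, which binds and inhibits thioredoxin, by 0.19 ± 0.033 (adjusted p = 8.23e-05), each higher in 7 of 7 strains. Among 28 alternatives each, Txnip kept its call in 28, while Pdp1 lost it in 10 (adjusted p up to 0.183), Acsbg1 in 8 (up to 0.192), Acot2 in 5 (up to 0.101) and Slc27a1 in 2 (up to 0.199). Most of these settings left out a whole strain. An array quality measure, the interquartile range of each array's relative log expression, averaged 0.197 in CR mice and 0.217 in control mice, and with it in the model the calls of Pdp1 (0.088, adjusted p = 0.183), Acsbg1 (-0.059, adjusted p = 0.148) and Acot2 (0.083, adjusted p = 0.0999) were lost. Leaving out 1 mouse ended the call of Pdp1 (129S1/SvImJ CR replicate 7 or B6C3F1/J CR replicate 7, adjusted p up to 0.0521) and of Acsbg1 (B6C3F1/J CR replicate 7, 0.0504), with differences little moved, at 0.13 in both cases for Pdp1 and -0.079 for Acsbg1. Without C57BL6/J the difference of Slc27a1 was -0.044.

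The second comparison asked how the genes differ between strains. Food allowances that differed by strain, and any handling done strain by strain, cannot be told apart from genotype in the strain and hybrid comparisons. Over both diets all 9 were called (moderated F test), against 79.7% of all genes. The call was made for 9 of 9 among control mice (65.4% of all genes) and for 8 of 9 among CR mice (56.8%), where Cpt1c had an adjusted p of 0.214. Over the 21 pairs of strains, 121 of 189 combinations of gene and pair were called, against 35.1% over all genes (18.2% to 64.3% of genes by pair). The lowest and highest strain means of a gene differed by a median of 0.23 log2 units over all genes.

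**Figure D3:**
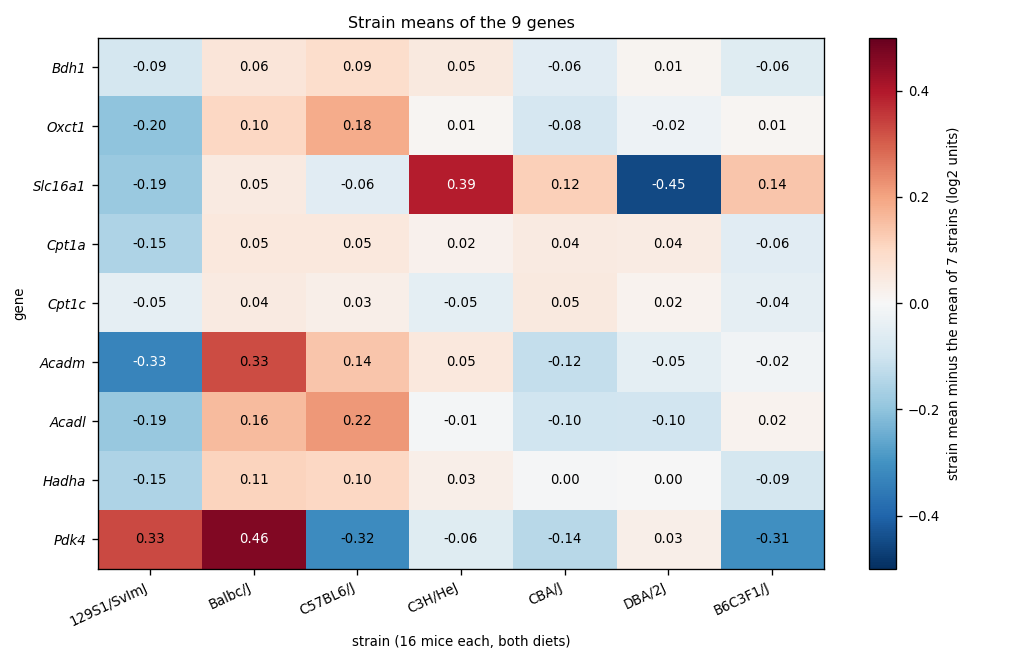
Mean of each strain (x axis, 16 mice each, both diets) minus the mean of the 7 strains, in log2 units as colour and number, for each gene (y axis). The most extreme cells are Slc16a1 in C3H/HeJ and DBA/2J, Acadm in Balbc/J and 129S1/SvImJ, and Pdk4 in Balbc/J and 129S1/SvImJ.

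Slc16a1 varied most, by 0.85 log2 units or 1.80-fold, a range larger than that of 98.8% of genes. The gene lies at chr3:104638664-104658462 (GRCm38.p6, as for the genes below). In C3H/HeJ it ran from 9.40 to 9.77 (median 9.56), and in DBA/2J from 8.25 to 9.18 (median 8.73). The hybrid (mean 9.32), CBA/J (9.30) and Balbc/J (9.23) followed C3H/HeJ (9.57), then C57BL6/J (9.12), 129S1/SvImJ (8.99) and DBA/2J (8.73). The steps from C3H/HeJ to the hybrid (0.25, adjusted p = 2.27e-05), from C57BL6/J to 129S1/SvImJ (0.13, adjusted p = 0.0163) and from 129S1/SvImJ to DBA/2J (0.26, adjusted p = 3.58e-06) were called, and the 3 steps between them were not. In DBA/2J control mice the SD of Slc16a1 was 0.28, against a median of 0.12 over the 14 groups. Without DBA/2J control replicate 8 and the other 3 arrays set apart above, the range was 0.81.

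The ketone enzymes ordered the strains otherwise. Oxct1 (chr15:4026428-4155344) had its highest mean in C57BL6/J, 9.95 with values from 9.85 to 10.1, and its lowest in 129S1/SvImJ, 9.57 with values from 9.43 to 9.74. The range was 0.38 (1.31-fold), and the steps from C57BL6/J to Balbc/J (9.87), from Balbc/J to the hybrid (9.78) and from CBA/J (9.69) to 129S1/SvImJ were called. The 3 steps from the hybrid through C3H/HeJ (9.78) and DBA/2J (9.74) to CBA/J were not called. Bdh1 (chr16:31422297-31458901) had the same highest and lowest strains, with means of 8.94 and 8.76, a range of 0.18 and 0 of 6 neighbouring steps called, although 10 of its 21 pairs were.

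Acadm (chr3:153922353-153944643), deficient in the commonest human disorder of fatty acid oxidation, varied by 0.66 or 1.57-fold, more than 97.1% of genes. Its values ran from 9.46 to 9.93 in Balbc/J (median 9.75) and from 8.86 to 9.23 in 129S1/SvImJ (median 9.08). Balbc/J stood above C57BL6/J (9.72 against 9.54, adjusted p = 2.20e-06), C57BL6/J above C3H/HeJ (9.45, adjusted p = 0.0422), and CBA/J above 129S1/SvImJ (9.28 against 9.07, adjusted p = 1.19e-07). The steps from C3H/HeJ to the hybrid (9.38), DBA/2J (9.35) and CBA/J were not called. Of the 21 pairs, 18 were called, the most of any of the 9 genes.

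Acadl (chr1:66830839-66863309) varied by 0.41, with means of 8.19 in C57BL6/J and 7.79 in 129S1/SvImJ, 14 pairs called and 1 neighbouring step, from Balbc/J to the hybrid (0.14, adjusted p = 0.00440). Hadha (chr5:30119423-30154980) varied by 0.27, with means of 9.38 in Balbc/J and 9.37 in C57BL6/J at the top and 9.11 in 129S1/SvImJ at the bottom. Hadhb followed it, with means of 8.99 in Balbc/J, 8.98 in C57BL6/J and 8.70 in 129S1/SvImJ, and r = 0.84 with Hadha over the 14 group means. Within groups the r between these subunit genes was 0.68 over 112 arrays and 0.63 without the 4 arrays high in cerebellar genes. Among the 18 measured genes of the beta-oxidation list, 18 differed between strains (79.7% of all genes), and the mean of the list was highest in C57BL6/J (8.31) and lowest in 129S1/SvImJ (8.09).

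Both carnitine palmitoyltransferase genes varied less. Cpt1a (chr19:3322326-3385735) had a range of 0.21, in which 6 strains lay between 8.63 and 8.74 and 129S1/SvImJ at 8.53, a step of 0.098 below the hybrid (adjusted p = 0.0156) and the only one called. Cpt1c (chr7:44958483-44974880) had a range of 0.095, larger than that of just 2.71% of genes, with means from 9.77 in CBA/J to 9.67 in C3H/HeJ and 0 of 6 steps called.

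Pdk4 (chr6:5483351-5496278) varied by 0.78 or 1.71-fold, more than 98.4% of genes, and in another order. Its values ran from 8.36 to 9.44 in Balbc/J (median 8.80), and from 7.35 to 8.38 in C57BL6/J (median 8.06). In 129S1/SvImJ, the lowest strain for 6 of the other genes, Pdk4 was second with a median of 8.60 (8.38 to 9.39). DBA/2J (mean 8.36), C3H/HeJ (8.28), CBA/J (8.20) and the hybrid (8.03) lay between 129S1/SvImJ (8.66) and C57BL6/J (8.02). Without C57BL6/J control replicate 6 the hybrid was lowest in place of C57BL6/J and the range was 0.77. Of the neighbouring steps, that from 129S1/SvImJ to DBA/2J was called (0.30, adjusted p = 0.000175). Pdk4 was also the most variable within groups, with a median SD of 0.16, against 0.072 to 0.12 for the other 8 genes.

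The strain 129S1/SvImJ had the lowest mean of 6 of the 9 genes: Bdh1, Oxct1, Cpt1a, Acadm, Acadl and Hadha. After quantile normalization it was lowest in 5, with Bdh1 then lowest in CBA/J, Cpt1a highest in CBA/J and Hadha highest in C57BL6/J. In that setting ranges fell to 0.74 for Pdk4, 0.56 for Acadm, 0.37 for Acadl and 0.31 for Oxct1. They fell to 0.18 for Hadha, 0.15 for Cpt1a and 0.12 for Bdh1. The range of Slc16a1 was 0.84, and that of Cpt1c rose to 0.13. Without its CR replicate 6, 129S1/SvImJ was lowest in 7, Cpt1c included. Over all genes 129S1/SvImJ was lowest in 22.2%, and in 36.7% of genes above the median gene, where these 9 lie. The 12 astrocyte markers also had their lowest mean in 129S1/SvImJ (9.33) and their highest in Balbc/J (9.66). The 9 endothelial markers were lowest in 129S1/SvImJ (8.43) and highest in C57BL6/J (8.73). Between strains 11 of the 12 and 9 of the 9 differed, against 79.7% of all genes. The lists of microglia (7.91) and mural cells (7.78) were lowest in 129S1/SvImJ too, while those of choroid plexus (7.56), blood (6.33) and adipocytes (6.73) were highest there. Over the 14 group means the astrocyte list had r = 0.94 with Acadm, 0.92 with Hadha, 0.87 with Oxct1, 0.83 with Bdh1, 0.80 with Acadl and 0.73 with Cpt1a, but 0.25 with Slc16a1 and -0.0020 with Pdk4. The endothelial list had 0.86 with Oxct1, 0.80 with Acadl and Cpt1a, 0.78 with Hadha, 0.66 with Acadm and 0.60 with Bdh1. With Slc16a1 the endothelial list had 0.30 and with Pdk4 -0.62. The 14 points share arrays and normalization, and they are 7 strains with a CR and a control mean each, so they are not independent. Fewer cells of a type and less RNA per cell cannot be told apart in whole cortex, and the part of cell composition in the strain differences was not tested.

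The third comparison set the hybrid against the mean of its parental strains. All 9 genes were lower in the hybrid, and 5 were called, against 31.9% of all genes. Slc16a1, at -0.028, turned to 0.0019 after quantile normalization. Against C57BL6/J alone 7 of 9 were called (44.5% of all genes), and against C3H/HeJ alone 4 of 9 (20.1%). The median difference was -0.093 over the 9 genes, 0.020 over all genes and -0.031 over the 9969 genes above the median gene, of which 60.7% were lower in the hybrid.

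Hadha differed most, with a mean of 9.18 in the hybrid, against 9.37 in C57BL6/J and 9.30 in C3H/HeJ (-0.16 ± 0.029 from the parental mean, adjusted p = 5.92e-06). It was lower than either parent (adjusted p = 8.09e-07 against C57BL6/J and 0.00420 against C3H/HeJ). Bdh1 was likewise below both, with a mean of 8.79 in the hybrid, against 8.94 in C57BL6/J and 8.90 in C3H/HeJ (-0.13 ± 0.031, adjusted p = 0.000673). Each difference from 1 parent was called (adjusted p = 0.000427 and 0.0220).

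Acadm (-0.11 ± 0.029, adjusted p = 0.00120) and Cpt1a (-0.093 ± 0.029, adjusted p = 0.00748) were below both parental means, though their differences from C3H/HeJ were not called (adjusted p = 0.127 and 0.0929). Oxct1 (-0.087 ± 0.024, adjusted p = 0.00249) had means of 9.78 in the hybrid and 9.78 in C3H/HeJ, under the 9.95 of C57BL6/J. Acadl (-0.086 ± 0.036, adjusted p = 0.0564) and Pdk4 (-0.12 ± 0.059, adjusted p = 0.119) were not called.

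Slc16a1 lay between its parents. Its mean was 9.32 in the hybrid, against 9.12 in C57BL6/J and 9.57 in C3H/HeJ, and it differed from each parent (adjusted p = 0.000472 and 2.27e-05) but not detectably from their mean (-0.028 ± 0.042, adjusted p = 0.635). Cpt1c differed by -0.034 ± 0.028 (adjusted p = 0.349). Within 1 diet the hybrid differed from the parental mean in 2 genes among CR mice (Oxct1 and Hadha, 18% of all genes) and in 4 among control mice (Bdh1, Cpt1a, Acadm and Hadha, 16.2%), with 9 of 9 estimates below 0 in either diet. Whether the hybrid's difference depended on diet was not tested. Over both diets 9 of 18 genes of the mitochondrial beta-oxidation list were called between hybrid and parental mean, against 31.9% of all genes. Hadhb was among them (-0.095, adjusted p = 0.0356).

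**Figure D4:**
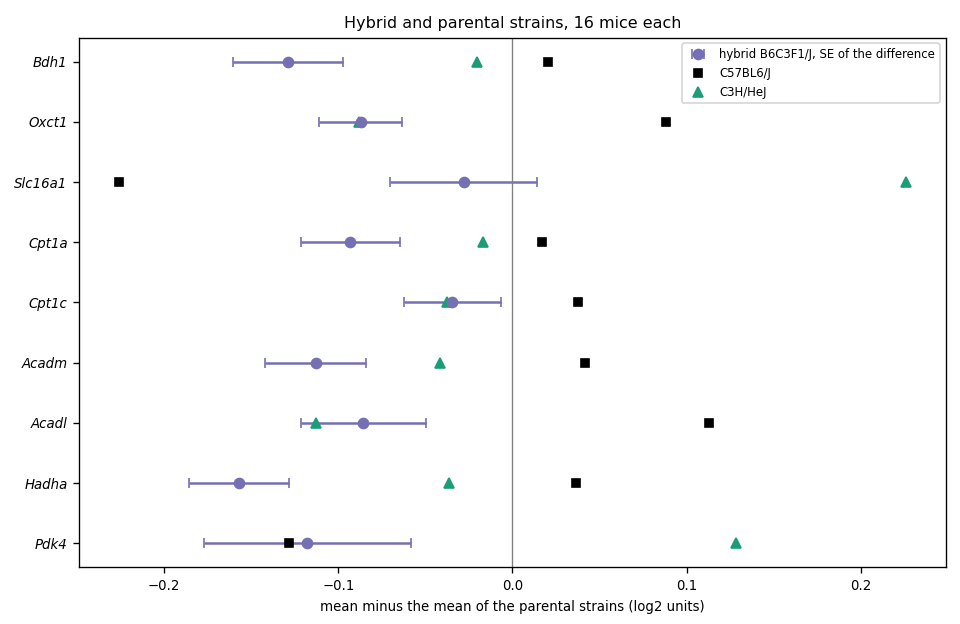
Hybrid mean (circle, with the SE of the difference) and the means of C57BL6/J (square) and C3H/HeJ (triangle), 16 mice each, minus the parental mean in log2 units (x axis) for each gene (y axis). All 9 circles lie left of 0, those of Hadha (-0.16) and Bdh1 (-0.13) well left of both parents, and the circle of Slc16a1 (-0.028) lies between parents that are far apart.

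Some of the genes also varied together from mouse to mouse, and others did not. Deviations of each array from its group mean, which leave out strain and diet, were correlated over 112 arrays, and arrays share their normalization and dissection. The 6 pairs of Cpt1a, Acadm, Acadl and Hadha had r between 0.36 and 0.52 (Spearman's rho 0.37 to 0.50), and between 0.45 and 0.50 without the 4 arrays high in cerebellar genes. Pdk4 had r = 0.44 with Cpt1a (rho 0.40), its highest among these genes, and -0.0090 with Slc16a1. The ketone enzymes Bdh1 and Oxct1 had r = 0.32. Other pairs had negative r, such as Acadm with Bdh1 (-0.20) and with Cpt1c (-0.19). The r of typical gene pairs on these arrays was not computed. Between groups the pattern differed: over the 14 group means Oxct1 had r = 0.94 with Acadl and 0.87 with Acadm, while Pdk4 lay between -0.32 and 0.14 with all 8 others.

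**Figure D5:**
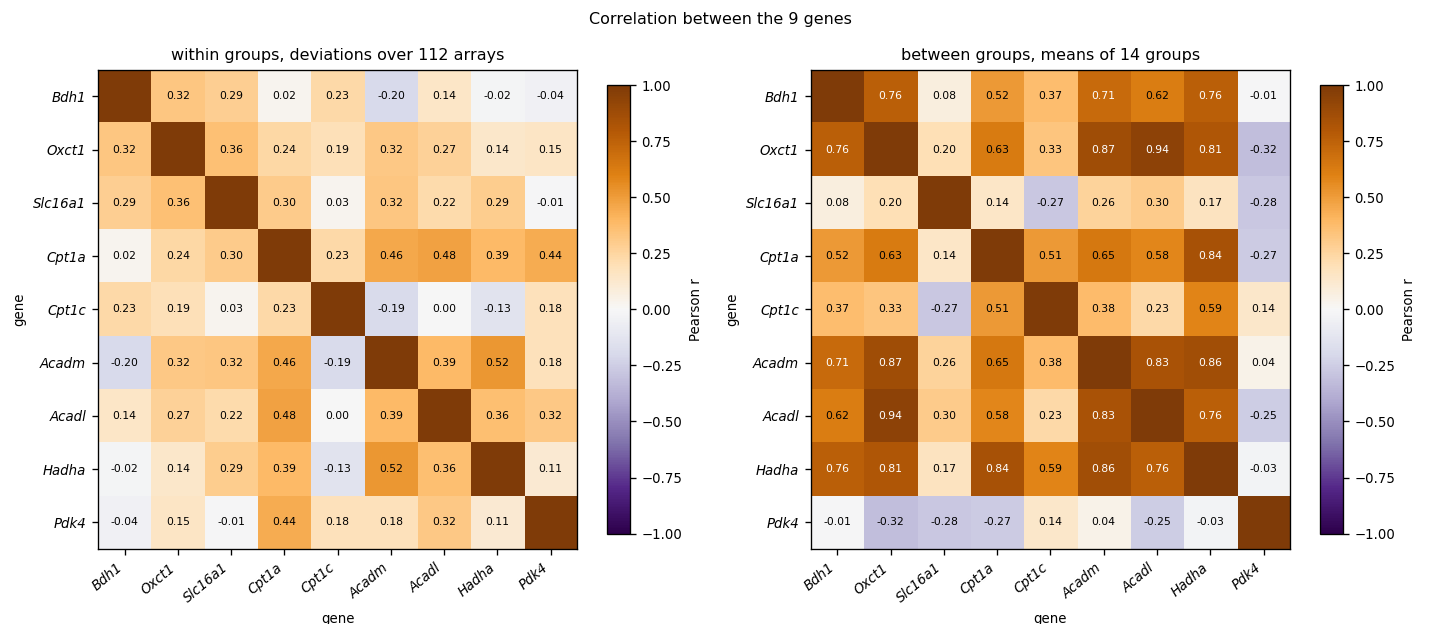
Pearson's r between each pair of genes, as colour and number, for deviations from the group mean over 112 arrays (left) and for the means of the 14 groups (right). Within groups the fatty acid genes Cpt1a, Acadm, Acadl and Hadha have r of 0.36 to 0.52, and between groups Oxct1 and Acadl have 0.94 while Pdk4 stays between -0.32 and 0.14.

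Some marker lists of glia and vessels varied with some of these genes, but not every list with every gene. Over the same deviations Hadha had r = 0.58 with the mean of the astrocyte list, Cpt1a and Acadm 0.45 each, Pdk4 0.41 and Acadl 0.36, whereas Bdh1 had 0.14 with astrocytes and 0.42 with the list of cortical excitatory neurons. Slc16a1 was closest to the endothelial list (r = 0.44), as was Cpt1a (0.52), which also had 0.46 with oligodendrocytes. Without the 4 arrays high in cerebellar genes Cpt1a was closest to astrocytes (0.55, against 0.52 with endothelium). Cpt1c had r = 0.62 with microglia, 0.56 with inhibitory neurons, 0.43 with excitatory neurons and -0.21 with astrocytes. These were 0.35, 0.21, -0.016 and -0.067 without the 4 arrays high in cerebellar genes. Over all arrays the microglia list had its lowest r with Hadha (-0.063), which was 0.43 without those 4. The mural cell list ran from -0.20 with Bdh1 to 0.32 with Cpt1a. Adipocyte markers were not abundant (mean log2 signal of the list 6.38 to 6.83 in any array). Their r was negative with every gene described, from -0.079 with Pdk4 to -0.52 with Acadl. The blood list was also negative with every gene, from -0.20 with Pdk4 to -0.39 with Oxct1. The cause of these negative r was not tested.

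Of all genes, those whose deviations over 112 arrays were most like each gene were Csrnp2 (r = 0.67) and Lrrc4 (0.65) for Bdh1, Mios (0.73) and Sbno1 (0.70) for Oxct1, and Ccp110 (0.58) and Slu7 (0.53) for Slc16a1. For Cpt1a they were Dock1 (0.62) and Wipf1 (0.60), for Cpt1c Sema6b (0.79) and Eri3 (0.78), and for Acadm Ggh (0.72) and Mre11a (0.70). For Acadl they were Wdr44 (0.64) and Thoc1 (0.58), for Hadha Zfp536 (0.68) and Ephx1 (0.68), and for Pdk4 Gpt2 (0.72) and Sgk1 (0.69). Without the 4 arrays high in cerebellar genes neither gene named for Slc16a1 stayed among its closest pair.

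Over the 14 group means the closest were Hmox2 and Tomm22 to Bdh1 (r = 0.91 and 0.90), Sccpdh and Ndufs1 to Oxct1 (0.98 and 0.97), Nrg4 and Lrp4 to Slc16a1 (0.90 and 0.90) and Dnajc11 and Preb to Cpt1a (0.91 and 0.91). Those closest to Cpt1c were Ccm2 and B4galt7 (0.95 and 0.91), to Acadm Metap1 and Atg5 (0.98 and 0.98), to Acadl Scpep1 and Tbpl1 (0.96 and 0.96), to Hadha Las1l and Cct5 (0.98 and 0.97), and to Pdk4 Atp10d and Aox4 (0.93 and 0.90). Each is the highest or next highest of the values over all other genes, and no pair was tested.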

How the data were processed

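RNA of cerebral cortex was measured on Mouse Gene 1.0 ST arrays (Affymetrix), 1 per mouse. The deposited values are log2 signals that the authors computed in Affymetrix Expression Console by gene-level RMA-Sketch, with background correction, quantile normalization and summary by probe set (versions not given in the sources used here). Quantile normalization hides any shift of a whole array, and array medians lay between 7.14 and 7.26. Probes were designed on a reference genome, so strain sequence differences can alter a probe set's signal in the strain and hybrid comparisons. Their effect was not examined.

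Of 35556 probe sets, 21789 carried exactly 1 gene symbol. The one of highest mean stood for a gene, which left 19938 genes with no filter on signal. A mean per group was fitted in R 4.3.3 with limma 3.58.1 (two-sided moderated tests, degrees of freedom 98 residual and 4.62 prior). The calling threshold was an adjusted p of 0.05 (Benjamini-Hochberg). The fit was run on simulated data with independent normal noise. These lack the variation that real arrays share, so they do not test the fit under it. Nothing says that mice of a group were other than separate animals.

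The genes and lists were chosen with earlier results of these data known. The text names all 9 genes, called list genes or else the pair of smallest p per list, and the pair of genes most like each. Hadhb and the cortical markers were named after values were seen. Alternatives were another normalization, centring, filter, probe sets singly, robust eBayes, array weights, a replicate block, a quality covariate, leaving out arrays or strains, the methods' t-test and a plain 2-way model. Python 3.11.15 with matplotlib 3.10.9 drew the plots.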

Additional observations from a re-analysis of the deposited data

Results flagged for a closer look

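In 10 of the 126 combinations of gene and group, 1 mouse lay far from the other 7 by Dixon's test, which chance alone gives in about 1 of 20. For Slc16a1 these were 129S1/SvImJ CR replicate 7 (8.59, the others 8.82 to 9.01), Balbc/J CR replicate 3 (9.50, the others 9.18 to 9.30) and C57BL6/J control replicate 3 (9.46, the others 9.11 to 9.27). For Cpt1a they were 129S1/SvImJ CR replicate 6 (8.80, the others 8.38 to 8.54) and Balbc/J CR replicate 4 (8.88, the others 8.68 to 8.74). For Cpt1c they were C57BL6/J control replicate 6 (9.29, the others 9.70 to 9.83) and B6C3F1/J control replicate 8 (9.47, the others 9.64 to 9.77), the pair of arrays highest in cerebellar genes. Acadl stood apart in C57BL6/J CR replicate 1 (7.90, the others 8.06 to 8.18), and Hadha in DBA/2J control replicate 5 (9.44, the others 9.17 to 9.28) and B6C3F1/J CR replicate 7 (8.92, the others 9.14 to 9.33).

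Each of these 10 arrays was left out in turn, an alternative chosen after seeing the data. Without C57BL6/J control replicate 3 the difference of Slc16a1 between CR and control mice of that strain was -0.18, against -0.22 with it, and without C57BL6/J CR replicate 1 that of Acadl was -0.15, against -0.18 with it.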

How the results depend on the processing

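Across the alternatives 0 of 9 genes were called for CR over all strains, 0 for the interaction and 9 for strain differences over both diets, while the hybrid differed from its parents in 5 or 6. Strain differences were called in 8 or 9 genes within control mice and within CR mice. Within strains 1 of 63 combinations was called with array weights and 0 in the other settings, the methods' t-test included. Signs turned only in differences that were not called. For CR across strains these were Cpt1c with array weights (-0.0042), with the array's spread of relative log expression in the model (-0.0034), without 2 (-0.0038) or 4 (-0.0080) arrays high in cerebellar genes, and Cpt1a without CBA/J (-0.0012). For the hybrid it was Slc16a1 after quantile normalization (0.0019). Acadl gained the hybrid call with the filter to genes above the median (adjusted p = 0.0389), with that covariate (adjusted p = 0.0463) and without C57BL6/J CR replicate 1 (0.0341), in a range of 0.0341 to 0.196. The lowest strain of Pdk4 was B6C3F1/J in place of C57BL6/J with that covariate, without 2 or 4 arrays high in cerebellar genes and without C57BL6/J control replicate 6. Of the 36 genes named as most like the 9, 23 stayed among the closest without 4 arrays. Of all 19938 genes, 467 were called for CR, and 1193 with array weights, 870 or 875 without 2 or 4 arrays high in cerebellar genes, and 175 to 504 without 1 strain. The cause was not tested.

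The replicate number marks no shared animal, litter or day in the labels. Of 56 same-numbered pairs of CR and control mice, 31 had correlated deviations over 0.1 (r from -0.48 to 0.37, median 0.11, against a median of -0.0094 for different numbers), and 14 of 56 CR mice correlated best with their own number, where chance gives 7. With the number within strain as a random block (consensus correlation 0.080), 0 of 9 genes were called for CR, 0 of 63 within strains, 9 for strain differences and 5 for the hybrid.

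The number of arrays limits the precision, to a standard error of 0.015 to 0.037 for the CR difference of these genes across strains.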
